A study of Mus musculus with 12 samples.

Results

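The collagen chain genes of mouse subcutaneous colorectal tumour tissue are described here, chosen by symbol alone as every gene named Col, a type number, a and a chain number. Of the 17875 genes measured, 43 met this rule: 11 encode chains of fibrillar collagens, 6 encode chains of collagen IV, and 26 encode chains of the other types. Messenger RNA was sequenced in 12 libraries, 3 from each of 4 groups of mice. Every group carried subcutaneous tumours of colorectal cancer. The control group had tumours and no further treatment, the stress group also underwent chronic stress, and the remaining groups underwent chronic stress with a low (XCHT-L) or a high (XCHT-H) dose of Xiaochaihu decoction, a multi-herb preparation. The doses in numbers, the tumour cell line, the strain, sex and age of the mice and whether replicates were separate animals are not given in the sources used here, so p-values reflect only how these 12 libraries scatter, and some of that scatter may be technical.

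Collagens are the main structural proteins of the extracellular matrix, and each molecule is a triple helix of chains from one or several genes. Fibrillar collagens (types I, II, III, V, XI, XXIV and XXVII) pack into the fibres that give connective tissue its tensile strength, collagen IV forms the sheet-like network of basement membranes, and collagen VI forms beaded filaments around cells. In tumours most fibrillar collagen is made by fibroblasts of the stroma, while vessels and epithelium contribute basement membrane chains.

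Stretches just upstream of the annotated gene starts are printed for 4 genes that the results turn on, so that the letters searched can be read beside their expression: the most abundant fibrillar gene (Col3a1), the most evenly expressed abundant one (Col1a2), the most abundant collagen VI gene (Col6a1) and the gene with the smallest unadjusted p under stress (Col7a1). They are RefSeq sequences of GRCm38.p6, read 5′ to 3′ on the gene's own strand, with a CCAAT box (CCAAT), a GC box (GGGCGG) or a TATA box (TATAAA) in capitals, on either strand. They end at the base before the start.
Col3a1 (chr1:45311418-45311537, plus strand): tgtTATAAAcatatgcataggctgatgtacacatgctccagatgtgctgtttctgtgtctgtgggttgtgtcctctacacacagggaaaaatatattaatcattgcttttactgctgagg
Col1a2 (chr6:4505498-4505617, plus strand): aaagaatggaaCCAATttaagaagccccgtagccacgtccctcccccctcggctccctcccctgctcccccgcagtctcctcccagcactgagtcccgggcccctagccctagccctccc
Col6a1 (chr10:76726045-76726164, minus strand): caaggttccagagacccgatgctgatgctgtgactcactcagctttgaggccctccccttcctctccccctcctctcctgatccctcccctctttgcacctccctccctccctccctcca
Col7a1 (chr9:108953466-108953585, plus strand): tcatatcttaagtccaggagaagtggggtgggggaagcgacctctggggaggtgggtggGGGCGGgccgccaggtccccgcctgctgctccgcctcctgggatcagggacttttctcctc
A TATA box lay 117 bases before the Col3a1 start, a CCAAT box 109 bases before that of Col1a2 and a GC box 61 bases before that of Col7a1, and none of them occurred in the 120 bases printed for Col6a1. RefSeq promoters matched 34 of the 43 genes, with 36 starts. In the 250 bases before the start, on both strands, a GC box occurred in 22 of 36 collagen promoters (61.1%) and in 32.7% of all 32851 promoters. A CCAAT box occurred in 12 of 36 (33.3%, against 33.8% of all), and a TATA box in 5 of 36 (13.9%, against 12.4%). These shares describe letters, not bound sites.

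Several collagen genes lie side by side. Col4a1 and Col4a2, which encode the chains of the common collagen IV molecule, lie head to head on chromosome 8 (minus and plus strand) and the annotated genes overlap by 85 bases at their starts. The stretch between the 2 starts of the RefSeq promoter entries, which lies inside both annotated genes, is shown on the plus strand with its GC box in capitals:
Col4a1/Col4a2 (chr8:11312805-11312826): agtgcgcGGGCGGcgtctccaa
Col4a3 and Col4a4 share 114 bases on chromosome 1, and 1274 bases separate Col4a5 and Col4a6 on the X chromosome. Col3a1 and Col5a2 lie 24624 bases apart on chromosome 1, and Col6a1 and Col6a2 lie 85161 bases apart on chromosome 10.

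Libraries held 16734741 to 17950195 counts. Expression levels are given as TPM, which is scaled for transcript length and library size, and differences between groups as log2 fold changes (standard error, SE) that edgeR's quasi-likelihood test gave for the counts. Markers of the labelled tissue were near 0: of 11 colorectal epithelial genes measured, 10 had a mean under 1 TPM, and Epcam, the epithelial adhesion molecule, stood at 0 to 0.840 TPM. Krt8 and Krt18, simple epithelial keratins, stood at 0 to 0.13 and 0 to 0.10 TPM. The summed level of 15 skeletal muscle genes was 445, 316 and 821 TPM in control 1, low dose 3 and high dose 2, against 6.92 to 68.0 TPM in the other 9 libraries. The summed level of 12 fibroblast genes ran from 290.0 TPM in high dose 2 to 1138 TPM in low dose 1. Dcn, the largest member, gave 87.7 and 874 TPM of these sums.

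Collagen transcripts made up 3322 to 9857 TPM per library. The sum was 5388, 5727 and 4469 TPM in the control libraries, 6365, 6517 and 7375 under stress, 9857, 4720.3 and 3322 at the low dose and 9033, 3574 and 6819 at the high dose. All 3 stress libraries stood above all 3 control libraries, whereas each dose group held both values above and values below every control. Low dose 1 and high dose 1 had the highest sums of all 12, and low dose 3 and high dose 2 the lowest. Fewer cells of a collagen-producing type and less collagen RNA per cell cannot be told apart in such bulk samples.

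**Figure D1:**
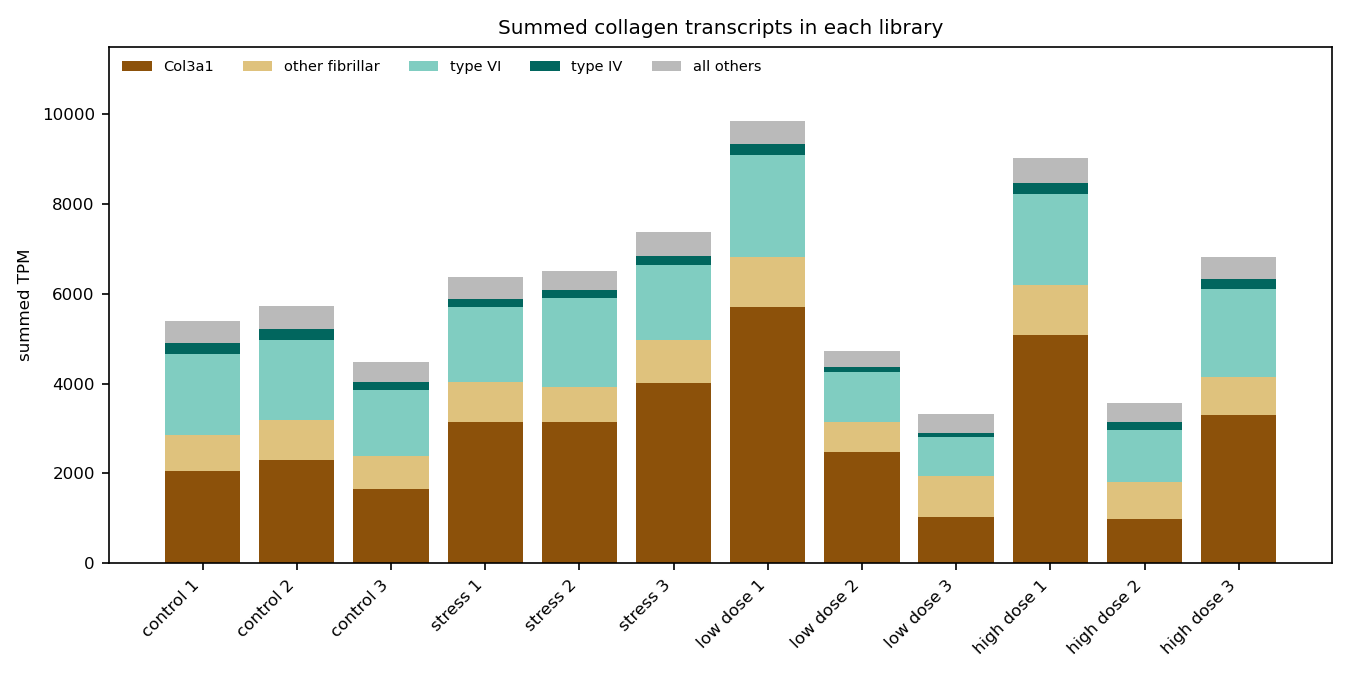
Summed TPM of the collagen genes (vertical axis) in each of the 12 libraries (horizontal axis), stacked as Col3a1, the other fibrillar genes, type VI, type IV and all others. The bars run from 3322 TPM in low dose 3 to 9857 TPM in low dose 1, and the Col3a1 segment varies the most, from 979 to 5701 TPM.

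Expression was uneven among the 43 genes: 16 had a mean of at least 10 TPM, 8 a mean of 1 to 10 TPM and 19 a mean under 1 TPM, of which 9 were under 0.1 TPM. A count above 0 was found in every library for 35 genes. Col3a1 alone supplied 27.4% to 57.8% of the collagen TPM of a library, and ranked 49th in mean TPM among all genes measured. Fibrillar genes together supplied 50.3% to 69.3%, collagen VI genes 22.3% to 33.6% and collagen IV genes 2.38% to 5.57%.

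Col3a1, whose product builds fine reticular fibres, stood at 2040.1, 2286 and 1643 TPM in the control libraries, 3145, 3142 and 4008 under stress, 5701, 2466 and 1032 at the low dose and 5074, 979 and 3293 at the high dose. Stress libraries all exceeded the controls, and the dose groups spanned nearly the whole range, with low dose 3 and high dose 2 below every control. Col1a1 and Col1a2 encode the chains of collagen I, the most abundant collagen of skin, tendon and bone. Col1a2 stood at 303, 352 and 296 TPM in the control libraries, 326, 288 and 394 under stress, 402, 274 and 380.0 at the low dose and 447, 359 and 308 at the high dose. Its levels overlapped among all 4 groups and varied less across libraries than those of Col3a1 or Col1a1. Col1a1 stood at 85.9, 100.2 and 74.8 TPM in the control libraries, 134, 58.4 and 176 under stress, 107, 99.3 and 215 at the low dose and 202, 160.2 and 62.6 at the high dose. The lowest values were in stress 2 and high dose 3 and the highest in low dose 3 and high dose 1, so that the stress and high-dose groups each spread beyond the control range on both sides.

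Collagen V co-assembles with collagen I and regulates fibril diameter. Its Col5a1 chain stood at 177, 189 and 158 TPM in the control libraries, 190.5, 191 and 160.1 under stress, 279.9, 133 and 108 at the low dose and 215, 121 and 219 at the high dose. Col5a3 stood at 166, 172 and 147 TPM in the control libraries, 147, 159.9 and 155 under stress, 221, 107 and 122 at the low dose and 159.8, 111 and 156 at the high dose. Both were highest in low dose 1, and the lowest values fell among low dose 2, low dose 3 and high dose 2. Col5a2 stood at 59.0, 71.6 and 58.1 TPM in the control libraries, 69.3, 69.9 and 75.2 under stress, 97.0, 51.0 and 64.2 at the low dose and 94.4, 54.7 and 78.0 at the high dose. Its stress libraries lay within 69.3 to 75.2 TPM, close to the upper control value. The other fibrillar genes were low: Col27a1 ran from 5.27 to 16.4 TPM, Col11a2 from 1.62 to 7.60 TPM, and Col2a1, the main collagen of cartilage, from 0.07 to 0.42 TPM. Col11a1 ran from 0.02 to 1.43 TPM with its highest value in high dose 2, and Col24a1 from 0.05 to 0.37 TPM. The 6 cartilage and bone markers measured summed to 0 to 0.60 TPM.

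Collagen IV genes followed a different pattern across libraries from Col1a1. Col4a1 stood at 138, 136 and 99.4 TPM in the control libraries, 105, 96.8 and 134 under stress, 128, 64.3 and 53.5 at the low dose and 137, 109 and 129 at the high dose. Low dose 2 and low dose 3 were the lowest of all 12 libraries, and low dose 1 lay within the control range. Col4a2 stood at 101, 107 and 76.6 TPM in the control libraries, 68.8, 80.4 and 84.2 under stress, 95.3, 53.9 and 46.3 at the low dose and 97.5, 88.1 and 100.1 at the high dose, with the same pair of libraries lowest. Col4a5, a chain of kidney, lung and testis basement membranes, ran from 0.89 to 11.7 TPM, highest in low dose 1 (11.7) and high dose 1 (8.50). Col4a3, Col4a4 and Col4a6 had means of 0.0442, 0.107 and 0.0175 TPM.

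Of the collagen VI genes, Col6a1 stood at 805, 775 and 638 TPM in the control libraries, 765, 908 and 775 under stress, 1032, 505 and 306 at the low dose and 914, 439 and 888 at the high dose. Col6a2 stood at 625, 619 and 462 TPM in the control libraries, 606, 716 and 624 under stress, 906, 402 and 257 at the low dose and 762, 336 and 698 at the high dose. In both, low dose 3 and high dose 2 were the lowest libraries and low dose 1 the highest, and low dose 2 also lay below all controls in TPM. In CPM (counts scaled to library size) low dose 2 lay above control 3 for Col6a2, at 994 against 930. Col6a3, the longest chain of collagen VI, stood at 379, 386 and 366 TPM in the control libraries, 303, 350.4 and 255 under stress, 334, 205 and 305 at the low dose and 335, 381 and 375 at the high dose. Its 3 control values lay above all stress and all low-dose values, and the high-dose values overlapped the controls. Col6a4 ran from 0.49 to 2.62 TPM, and Col6a5 and Col6a6 had means of 0.0267 and 0.00167 TPM.

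Among the remaining types, Col16a1, a fibril-associated collagen with an interrupted triple helix, stood at 253, 259 and 221 TPM in the control libraries, 286, 262 and 303 under stress, 309, 201 and 182 at the low dose and 353, 179 and 280.4 at the high dose. The stress values lay just above the control values, 262 against 259 TPM at the nearest. Col7a1 encodes collagen VII, the anchoring fibril that ties epidermal basement membrane to dermis, and stood at 74.0, 86.2 and 81.6 TPM in the control libraries, 54.2, 54.4 and 43.1 under stress, 63.0, 35.3 and 80.7 at the low dose and 51.4, 72.3 and 61.7 at the high dose. All 3 stress values lay below all 3 control values, and the dose groups spread from 35.3 to 80.7 TPM. Col18a1, a basement membrane proteoglycan core whose end fragment is endostatin, stood at 68.5, 78.2 and 51.4 TPM in the control libraries, 44.5, 54.9 and 71.2 under stress, 54.0, 60.2 and 57.6 at the low dose and 67.6, 58.1 and 60.9 at the high dose. Its groups overlapped throughout.

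Col8a1, a short-chain collagen of vessel walls and cornea, stood at 47.4, 48.4 and 41.5 TPM in the control libraries, 62.0, 40.3 and 70.3 under stress, 52.9, 24.7 and 53.5 at the low dose and 59.7, 56.6 and 48.8 at the high dose. Col15a1, found where basement membrane meets connective tissue and in muscle, stood at 21.8, 17.7 and 12.9 TPM in the control libraries, 14.4, 6.43 and 16.7 under stress, 12.7, 4.85 and 19.5 at the low dose and 17.7, 23.1 and 12.4 at the high dose. Low dose 2 was the lowest library in each. The groups of Col15a1 overlapped throughout, as did those of Col8a1 but for the high dose, whose 3 TPM values lay above the control values (48.8 against 48.4 TPM at the nearest) while the CPM values overlapped. Col12a1, a fibril-associated collagen of dense tissue, was highest in low dose 3 (8.57 TPM) and high dose 2 (8.74 TPM), against 0.85 to 4.52 TPM elsewhere. The related Col14a1 was also highest in those libraries (5.08 and 5.72 TPM). Both were among the 3 libraries with the highest skeletal muscle sums. Control 1, the remaining library of those 3, stood at 1.59 TPM for Col12a1 and 3.39 TPM for Col14a1. Whether muscle accounts for these levels was not tested. Col9a3 and Col20a1 ran from 5.07 to 11.5 and 3.30 to 5.75 TPM, and the 4 transmembrane genes Col13a1, Col17a1, Col23a1 and Col25a1 did not exceed 1.31 TPM in any library. Col10a1, the collagen of growth-plate cartilage, had a mean of 0.0167 TPM. Means of Col28a1, Col8a2, Col22a1, Col26a1, Col19a1 and Col9a2 ran from 0.00333 to 0.987 TPM.

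**Figure D2:**
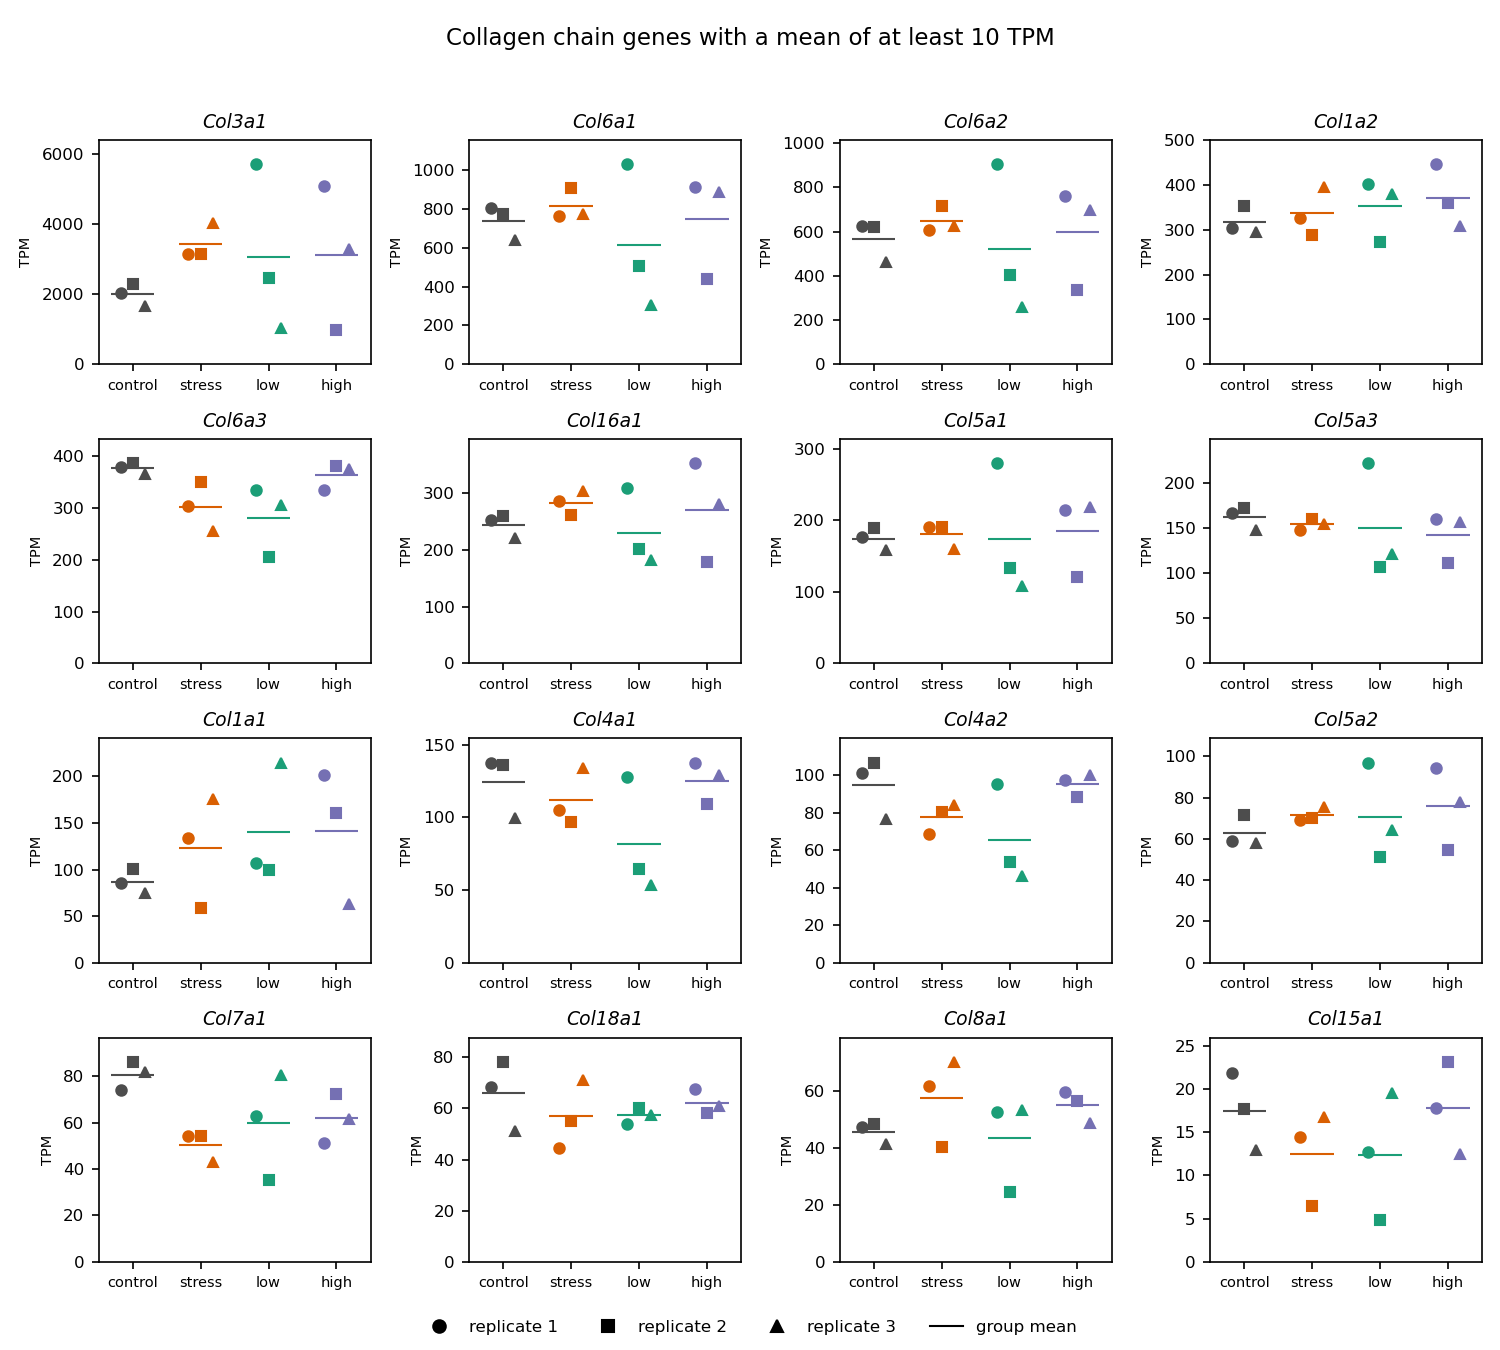
TPM (vertical axis, from 0) of the 16 collagen genes with a mean of at least 10 TPM in the control, stress, low-dose and high-dose groups. Symbols mark replicates 1 to 3 and the line the mean of 3; the stress points of Col3a1 (3142 to 4008 TPM) lie above the control points (1643 to 2286 TPM), and those of Col7a1 (43.1 to 54.4 TPM) below (74.0 to 86.2 TPM).

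Chains of one molecule were compared across libraries. The ratio of Col4a1 to Col4a2 TPM ran from 1.16 to 1.59 and that of Col6a1 to Col6a2 from 1.14 to 1.38, whereas that of Col1a1 to Col1a2 ran from 0.203 in stress 2 and high dose 3 to 0.565 in low dose 3. In the 12 exact 2-sided permutation tests of the Col1a1 to Col1a2 and Col4a1 to Col4a2 ratios (6 comparisons each), the smallest p was 0.2 and the smallest adjusted p 0.6, where 3 against 3 cannot go below 0.1. Across the 12 libraries, on the log2 CPM scale (counts scaled to library size), Col6a1 and Col6a2 varied together most closely (Pearson r = 0.989, Spearman rho = 0.965, both p = 1e-05 and adjusted p = 6e-05 by permutation, the smallest that 100000 permutations can give being 1e-05). Without the libraries farthest from the Col6a1 median, low dose 3 and high dose 2, r was 0.984. Col4a1 and Col4a2 gave r = 0.929 (permutation p = 0.00013, adjusted p = 0.00039) and rho = 0.783 (permutation p = 0.00376, adjusted p = 0.00564), with r = 0.779 when low dose 2 and low dose 3 were left out. For Col1a1 and Col1a2, r was 0.882 (permutation p = 0.00039, adjusted p = 0.00078) and rho 0.888 (permutation p = 0.00036, adjusted p = 0.00108), and r was 0.822 without low dose 3 and stress 2.

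Col5a1 and Col5a2 gave r = 0.680 (permutation p = 0.0154, adjusted p = 0.0185) and rho = 0.573 (permutation p = 0.0566, adjusted p = 0.0679), so the rank correlation did not pass. Without low dose 1 and low dose 3, r was 0.727. The neighbours Col3a1 and Col5a2 gave r = 0.762 (permutation p = 0.00424, adjusted p = 0.00636) and rho = 0.804 (permutation p = 0.00249, adjusted p = 0.00498), and r = 0.908 without high dose 2 and low dose 3. For Col3a1 and Col1a1, whose products can share a fibril, r was -0.15 (permutation p = 0.648) and rho -0.05 (permutation p = 0.885), and without high dose 2 and low dose 3 r was 0.51. After each group's mean was subtracted, r was 0.995 for Col6a1 with Col6a2, 0.924 for Col4a1 with Col4a2, 0.862 for Col1a1 with Col1a2 and -0.28 for Col3a1 with Col1a1. The 6 pairs were adjusted together, and libraries share depth and tissue composition, so these values describe the 12 libraries and not control of the genes.

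The ratio of Col3a1 to Col1a1 TPM fell into separate ranges. It was 22.0 to 25.2 in 7 libraries, all 3 controls among them with stress 1, stress 3, low dose 2 and high dose 1. Stress 2, low dose 1 and high dose 3 stood at 52.6 to 53.8, and low dose 3 and high dose 2 at 4.80 and 6.11. Each stressed group thus held 1 library of the highest range, and the ratio did not follow the groups. Over the 32 genes tested for differences, the collagen profiles of low dose 3 and high dose 2, as deviations from each gene's mean, were the most alike of any 2 libraries (r = 0.797 across genes, which are not independent). The lowest such r was -0.89, between stress 2 and high dose 2.

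**Figure D3:**
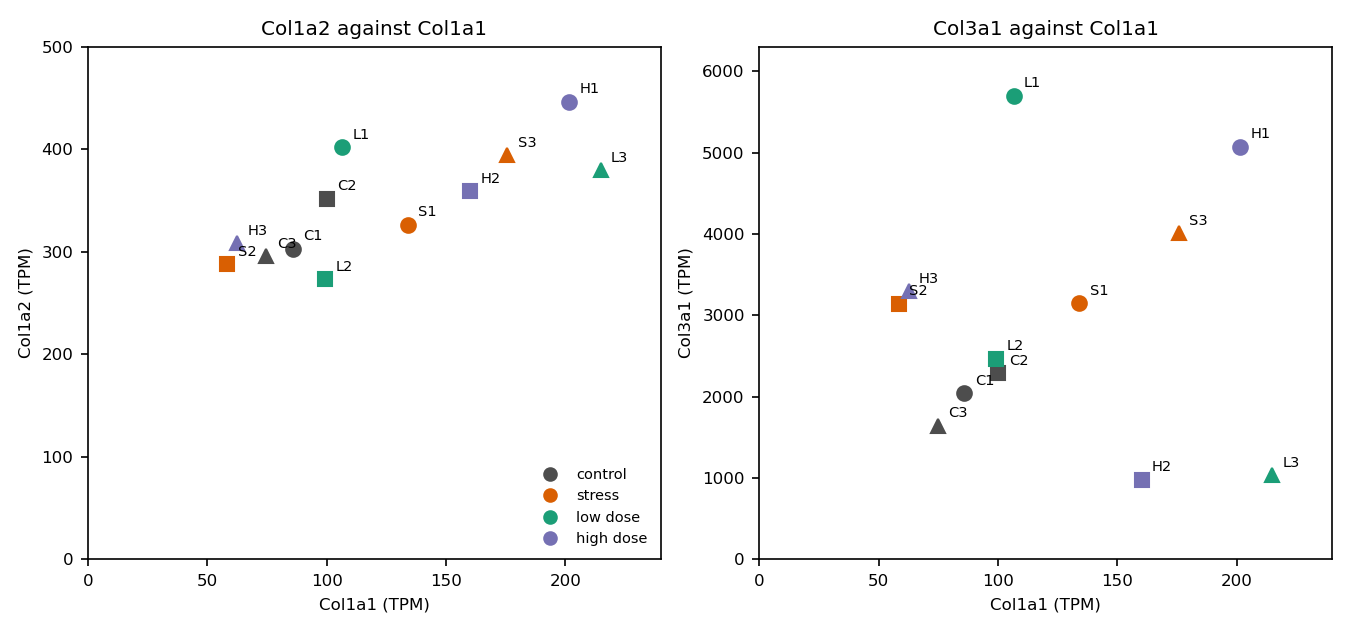
Col1a2 (left) and Col3a1 (right) against Col1a1, all in TPM, with 1 point for each of the 12 libraries (C control, S stress, L low dose, H high dose, with the replicate number). Col1a2 rises with Col1a1 (r = 0.882 on the log2 CPM scale), whereas low dose 3 and high dose 2 lie far below the other libraries in Col3a1 at high Col1a1.

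Differences between groups were tested for 32 of the 43 genes, those with enough counts: 10 of 11 fibrillar, 4 of 6 type IV and 18 of 26 others. The 11 not tested had mean levels of 0.00167 to 0.122 TPM. By edgeR's quasi-likelihood test no collagen gene passed an adjusted p of 0.05 in any of the 6 comparisons, where 0% of the 13453 genes tested passed in each. DESeq2 and limma-voom also called 0 collagen genes in each, and their smallest adjusted p for one was 0.299 and 0.216. Over all genes DESeq2 called 0.00743% under stress, 0.706% at the low dose and 0% at the high dose against stress, 0.0372% between the doses, and 0.505% at the low and 0.00743% at the high dose against control. Under a looser rule, an unadjusted p under 0.05 with a log2 fold change of at least 1 in size, edgeR called 1 of 32 collagen genes between the doses (Col23a1, against 0.825% of all genes tested). It called 1 at the low dose against control (Col23a1, against 1.32%) and 1 at the high dose against control (Col13a1, against 0.334%). No collagen gene met it under stress, at the low dose against stress or at the high dose against stress, where 0.676%, 1.67% and 0.26% of all genes did. Single libraries weighed heavily: leaving 1 out turned the sign of 13 to 21 of the 32 fitted differences per comparison and moved 27 to 32 of them by over 1.5 times.

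The comparison of stress with control asks what chronic stress does to the tumour's collagen transcripts. The unadjusted p was under 0.05 for 1 of 32 collagen genes, against 2.85% of all genes tested. This was Col7a1, at 80.6 ± 6.19 TPM (SD, n = 3) in control and 50.6 ± 6.49 TPM under stress. Its log2 fold change was -0.67 (SE 0.22), with an unadjusted p of 0.0112 and an adjusted p of 0.9999 by edgeR. Stress and control libraries did not overlap in CPM for 4 of 32 genes, against 14.1% of all genes: Col3a1 and Col16a1 were higher and Col7a1 and Col6a3 lower under stress. Col3a1 differed by 0.79 (SE 0.57), a fold larger than that of any other abundant collagen but with a wide error (unadjusted p = 0.195 by edgeR). That error was estimated over all 4 groups. The SD of Col3a1 was 325 TPM in control and 499 TPM under stress, against 2392 TPM at the low and 2053 TPM at the high dose. Col16a1 differed by 0.22 (SE 0.20) and Col6a3 by -0.31 (SE 0.15).

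The largest skeletal muscle sum of the control group, 445 TPM in control 1, moves with this comparison, as all 15 muscle genes had lower fitted values under stress (median log2 fold change -2.57, with Ckm, the muscle creatine kinase, at 0 TPM in stress 3). The muscle sum ran from 12.2 to 445 TPM in control and from 6.92 to 68.0 TPM under stress. When the muscle score entered the fit, the Col3a1 difference was 0.30 and that of Col7a1 -0.56, and without the 3 libraries richest in muscle they were 0.80 and -0.74. Fibroblast genes summed to 323 to 470 TPM in control and 534 to 803 TPM under stress, without overlap, and 9 of 12 had higher fitted values (median log2 fold change 0.35). The largest member was Dcn, at 277, 274 and 151 TPM in control and 326, 615 and 392 TPM under stress. The fibroblast scores, which weigh all markers alike, overlapped: -0.50 to -0.19 in control and -0.39 to 0.038 under stress. With the fibroblast score as a covariate Col3a1 differed by 0.43 and Col7a1 by -0.50. Krt14, a basal keratinocyte keratin, stood at 474, 413 and 452 TPM in control and 234, 378 and 218 TPM under stress, lower without overlap as Col7a1 was, while Krt5, its usual partner, was at 0 TPM in 11 of 12 libraries. Of 9 keratinocyte markers measured, 7 had a mean under 1 TPM, Krt5 among them. The part of keratinocytes in the Col7a1 values was not tested.

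By class, the median log2 fold change from control to stress was -0.01 over the 10 fibrillar genes (5 higher and 5 lower, where 51.7% of all genes tested were higher), -0.20 over the 4 type IV genes and 0.00 over the 4 type VI genes, against 0.01 over all genes tested. Summed fibrillar TPM nevertheless stood at 2849, 3184 and 2393 in control and 4030.0, 3920.1 and 4975 under stress, without overlap, and most of that sum was Col3a1. Further genes with the smallest unadjusted p that did not pass were Col23a1, a transmembrane collagen (0.86 (SE 0.49)), and Col8a1 (0.34 (SE 0.24)) on the higher side, and Col4a2 (-0.28 (SE 0.19)) on the lower side. Without stress 3, Col23a1 differed by 0.52 and Col8a1 by 0.16.

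**Figure D4:**
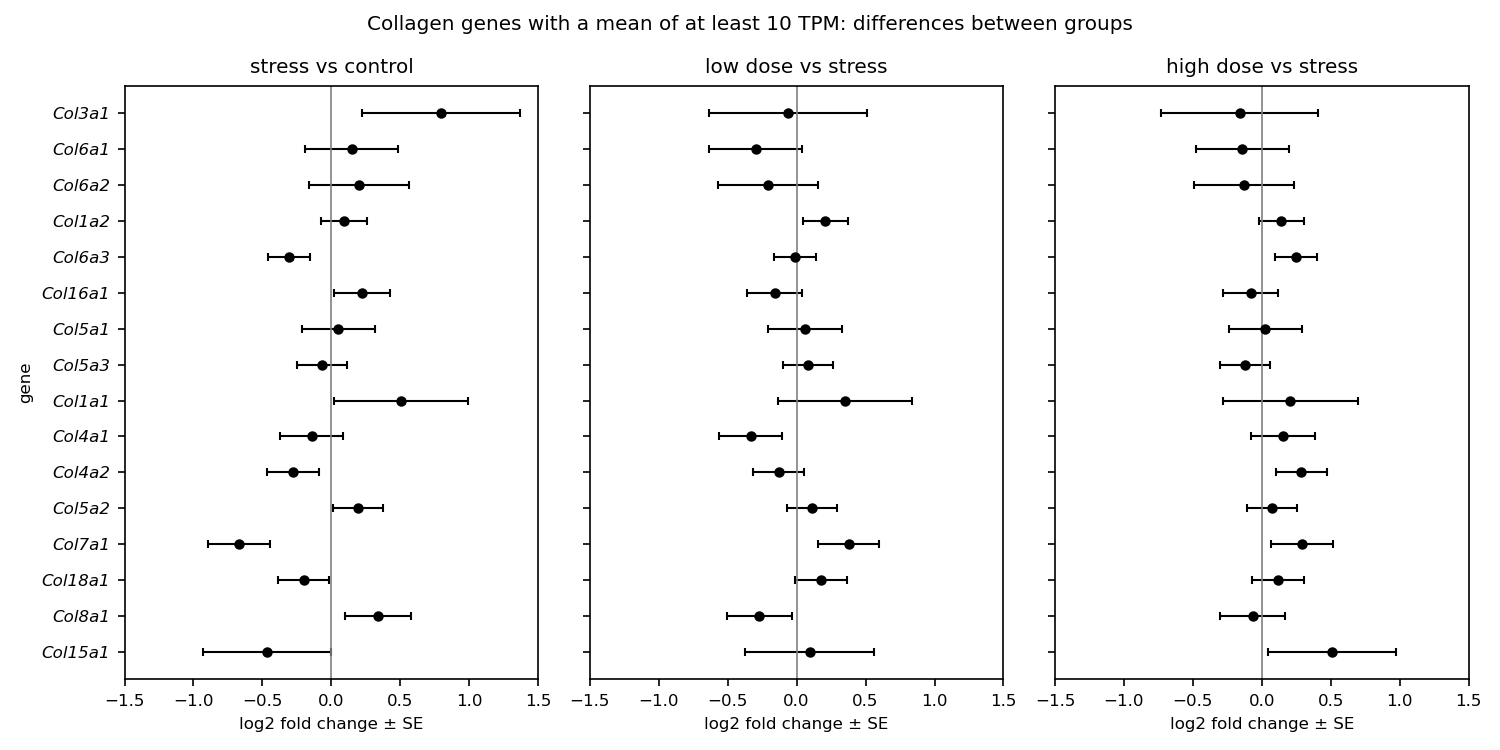
Log2 fold changes (points) with 1 SE on either side (bars) of the 16 collagen genes with a mean of at least 10 TPM, in the comparisons of stress with control, low dose with stress and high dose with stress. Col7a1 lies farthest below 0 under stress (-0.67) and Col3a1 farthest above (0.79, with an SE of 0.57).

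The comparison of the low dose with stress asks what the decoction does in stressed animals. No collagen gene had an unadjusted p under 0.05 by edgeR, against 13.4% of all genes tested, and none separated the groups in CPM, against 11.9%. The smallest unadjusted p values belonged to Col27a1 (0.58 (SE 0.28)), Col7a1 (0.38 (SE 0.22)) and Col17a1, the hemidesmosomal collagen (0.48 (SE 0.29)), on the higher side. On the lower side they belonged to Col6a4 (-0.68 (SE 0.39)), Col4a1 (-0.33 (SE 0.23)) and Col8a1 (-0.27 (SE 0.24)). Col7a1 differed by 0.07 without low dose 3, Col27a1 by 0.27 without low dose 1 and Col6a4 by -0.33 without low dose 3. The result for Col4a1 turned on 1 library: without low dose 1 edgeR called it, with a log2 fold change of -0.67 and an adjusted p of 0.0461, whereas without low dose 3 the difference was -0.12. The share of all genes called without low dose 1 is not given here, so this call cannot be set against it. By fitted values the fibrillar median was 0.28, with 9 of 10 genes higher, and all 4 type VI genes were lower (median -0.25), against a median of 0.00 and 49.9% higher over all genes tested. Mean TPM was lower at the low dose for Col3a1, Col5a1, Col5a2 and Col5a3 and higher for Col1a1 and Col1a2. The log2 ratio of summed fibrillar TPM was -0.12. Col3a1, the exception among the fitted fibrillar values, differed by -0.06 (SE 0.57). Low-dose libraries differed so much in Col3a1 (1032 to 5701 TPM) that its difference was -0.70 without low dose 1 and 0.34 without low dose 3.

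Fibroblast genes stood higher at the low dose in 11 of 12 cases (median log2 fold change 0.52), and their sums were 452 to 1138 TPM there. With the fibroblast score as a covariate the fibrillar median was 0.055. Muscle genes stood higher in 13 of 15 cases (median 1.87), with sums of 13.2 to 316 TPM at the low dose, and when the muscle score entered the fit the Col3a1 difference was -0.09. Endothelial markers stood lower in 7 of 8 cases (median -0.36; sums of 39.8 to 77.6 TPM under stress and 27.7 to 60.6 TPM at the low dose). Pericyte and smooth muscle markers stood lower in 7 of 9 (median -0.23; 118 to 155 and 93.5 to 142 TPM). The part of vessel cells in the collagen IV values was not tested. Low dose 2 also showed the strongest relation of its counts to transcript length (r = -0.52 across genes), and collagen transcripts are long, 2781 to 11511 bases. With offsets for length and GC content, Col4a1 differed by -0.18, Col7a1 by 0.61 and Col27a1 by 0.76, and none passed.

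Between the high dose and stress, no collagen gene had an unadjusted p under 0.05 by edgeR, against 1.42% of all genes tested. In CPM the high-dose libraries lay above all stress libraries for 2 of 32 genes, Col17a1 and Col4a2, against 2.43% of all genes in that direction and 5.75% in either. Col17a1 differed by 0.48 (SE 0.29) at levels under 1 TPM. Col4a2 stood at 68.8, 80.4 and 84.2 TPM under stress and 97.5, 88.1 and 100.1 TPM at the high dose, a difference of 0.29 (SE 0.19). The other smallest unadjusted p values belonged to Col13a1 (1.09 (SE 0.55)) and Col6a3 (0.25 (SE 0.15)) on the higher side and Col6a4 (-0.32 (SE 0.38)), Col4a4 (-0.38 (SE 0.49)) and Col5a3 (-0.12 (SE 0.18)) on the lower side. Col13a1 differed by 0.64 without high dose 2. Medians were 0.17 for fibrillar, 0.22 for type IV and -0.14 for type VI genes. Endothelial markers stood higher at the high dose in 8 of 8 cases (median 0.32), pericyte and smooth muscle markers in 8 of 9 (median 0.21), fibroblast markers in 10 of 12 (median 0.25) and muscle markers in 15 of 15 (median 3.29), and their part in the collagen values was not tested. Col3a1 differed by -0.16 (SE 0.57), with 979 to 5074 TPM in the high-dose libraries, and its difference was -0.71 without high dose 1 and 0.26 without high dose 2. High dose 2 held the highest muscle sum (821 TPM) and the lowest fibroblast sum (290.0 TPM). That low sum came with the lowest Dcn of all libraries (87.7 TPM). The fibroblast score of high dose 2, which weighs all markers alike, was -0.06, above those of the controls (-0.50 to -0.19). The low and the high dose were compared with the same 3 stress libraries, so their values are not independent.

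Between the doses, 2 of 32 collagen genes had an unadjusted p under 0.05, against 6.39% of all genes tested, and none separated the groups in CPM, against 7.34%. Col4a2 stood higher at the high dose (0.42 (SE 0.19), unadjusted p = 0.0450, adjusted p = 0.758 by edgeR) and Col23a1 lower (-1.03 (SE 0.47), unadjusted p = 0.0477, adjusted p = 0.758 by edgeR). Col4a1 differed by 0.49 (SE 0.23). Without low dose 1 the differences of Col4a1 and Col4a2 were 0.83 and 0.67, and without low dose 3 0.27 and 0.23. Col6a3 stood higher (0.26 (SE 0.15)), and Col4a4 (-0.67 (SE 0.48)) and Col27a1 (-0.32 (SE 0.28)) lower, but Col27a1 differed by -0.01 without low dose 1 and Col6a3 by 0.11 without low dose 2. By fitted values all 4 type VI genes stood higher at the high dose (median 0.21) and 9 of 10 fibrillar genes lower (median -0.09), against 50.8% higher over all genes tested. Without 1 library the fibrillar median ran from -0.29 to 0.026. Mean TPM differed from this: of the fibrillar genes with a mean of at least 10 TPM, only Col5a3 was lower at the high dose (142 against 150 TPM). The log2 ratio of summed fibrillar TPM was 0.028. Fibroblast markers stood lower at the high dose in 9 of 12 cases (median -0.40) and muscle markers higher in 15 of 15 (median 1.29), and their part in the fibrillar values was not tested. Pericyte and smooth muscle markers stood higher in 8 of 9 cases (median 0.79) and endothelial markers in 8 of 8 (median 0.56), and their part in the collagen IV values was not tested.

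Each dose was also set against the unstressed control. At the low dose 2 of 32 genes had an unadjusted p under 0.05, against 13.2% of all genes tested. Col23a1 stood at 0.20, 0.31 and 0.16 TPM in control and 0.89, 0.23 and 0.74 TPM at the low dose, and its log2 fold change was 1.58 (SE 0.49) (unadjusted p = 0.00665, adjusted p = 0.321 by edgeR). Its groups overlapped through low dose 2, at a level where counts are few. Col4a2 differed by -0.41 (SE 0.19) (unadjusted p = 0.0486, adjusted p = 0.377 by edgeR) and Col4a1 by -0.48 (SE 0.23). Without low dose 1, edgeR called both: Col4a1 at -0.82 (adjusted p = 0.0374) and Col4a2 at -0.66 (adjusted p = 0.0397). The share of all genes called in that fit is not given here, so these calls cannot be set against it. Groups did not overlap in CPM for 5 of 32 genes, against 17.4% of all genes: Col1a1 (0.86 (SE 0.49)) and Col4a4 (0.51 (SE 0.48)) were higher, and Col6a4 (-0.83 (SE 0.39)), Col6a3 (-0.32 (SE 0.15)) and Col28a1 (-0.31 (SE 0.34)) lower. In TPM the groups of Col1a1 overlapped (99.3 in low dose 2 against 100.2 in control 2), and those of Col4a4 met at 0.10 TPM, near the floor. Col1a2, also among the 3 smallest unadjusted p on the higher side, differed by 0.30 (SE 0.16). Col1a1 differed by 0.40 and Col4a2 by -0.23 without low dose 3, and Col6a3 by -0.17 without low dose 2. All 12 fibroblast genes stood higher (median log2 fold change 0.78). With the fibroblast score as a covariate Col1a1 differed by 0.38 and Col6a3 by -0.04. Endothelial markers stood lower in 8 of 8 cases (median -0.20) and pericyte and smooth muscle markers in 8 of 9 (median -0.51).

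At the high dose, 1 of 32 genes had an unadjusted p under 0.05 against control, where 1.04% of all genes tested did, and none separated the groups in CPM, against 8.7%. The gene was Col13a1, a transmembrane collagen of muscle and nerve junctions, at 0.25, 0.60 and 0.23 TPM in control and 0.43, 1.31 and 0.97 TPM at the high dose (1.27 (SE 0.56), unadjusted p = 0.0429, adjusted p = 0.99999 by edgeR). Its highest value was in high dose 2, the library with the highest muscle sum, and without that library the difference was 0.82. Control 1, with the next highest muscle sum (445 TPM), stood at 0.25 TPM for Col13a1. The part of muscle in the Col13a1 values was not tested. Col5a2 (0.26 (SE 0.18)) and Col1a1 (0.71 (SE 0.49)) followed on the higher side, and Col7a1 (-0.38 (SE 0.22)), Col6a4 (-0.47 (SE 0.38)) and Col5a3 (-0.19 (SE 0.18)) on the lower side. Without high dose 1, Col5a2 differed by 0.078 and Col1a1 by 0.39. Fibroblast markers stood higher in 11 of 12 cases (median 0.64), endothelial markers in 8 of 8 (median 0.32) and muscle markers in 13 of 15 (median 0.89). Col3a1 differed from control by 0.73 (SE 0.57) at the low dose and 0.63 (SE 0.57) at the high dose. Each value rested on 1 library: it was 0.099 without low dose 1 and 0.088 without high dose 1. With the fibroblast score as a covariate the Col3a1 differences were -0.67 and -0.21. These values share their control libraries with those for stress.

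**Figure D5:**
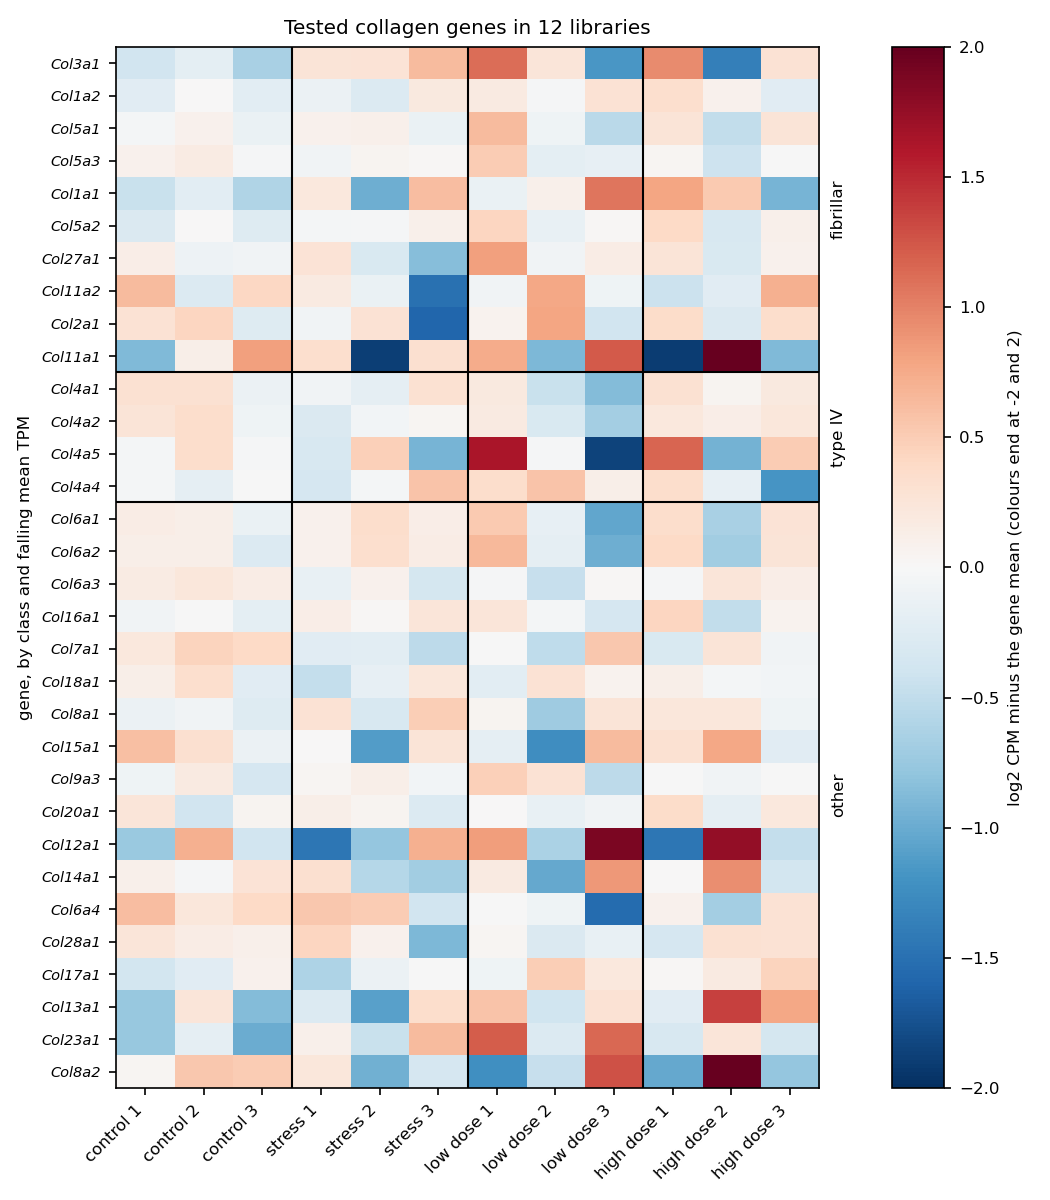
Log2 CPM minus the gene's mean over the 12 libraries (colour, ending at -2 and 2) for the 32 tested collagen genes (rows, by class and falling mean TPM) in each library (columns; black lines separate groups and classes). Low dose 3 and high dose 2 show low Col3a1, Col6a1 and Col6a2 with high Col12a1, Col1a1 and Col14a1.

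The machinery that makes, joins and removes collagen was followed in 7 lists, 75 tested gene entries in all. By edgeR 0 entries passed an adjusted p of 0.05 in any comparison. The unadjusted p was under 0.05 for 5 of 75 under stress (against 2.85% of all genes tested), 19 at the low dose against stress (13.4%) and 2 at the high dose against stress (1.42%). It was so for 6 between the doses (6.39%), 11 at the low dose against control (13.2%) and 1 at the high dose against control (1.04%). DESeq2 called 4 at the low dose against stress, where it called 0.706% of all genes, and 1 (Lama5) at the low dose against control, where it called 0.505%. It called 0 in the remaining comparisons.

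The 22 biosynthesis genes ran from Colgalt2, a collagen galactosyltransferase at a mean of 0.158 TPM, to Serpinh1 at a mean of 975 TPM. Serpinh1, the collagen-specific chaperone, ran from 877 to 1109 TPM, Ppib, a prolyl isomerase, from 526 to 698 TPM, and P4hb, a subunit of prolyl hydroxylase, from 463 to 621 TPM. The sum over all 22, to which those 3 gave the most, ran from 3172 to 3679 TPM, a narrower range than that of the collagens themselves. Single members varied more widely: P4ha2 and P4ha3, hydroxylase subunits, ran from 28.9 to 142 and 5.57 to 18.2 TPM. Plod1, a lysyl hydroxylase, stood at 112, 127 and 124 TPM in control, 95.2, 111 and 98.1 under stress and 128, 108 and 119.8 at the low dose. It differed by -0.25 (SE 0.10) under stress, and by 0.38 (SE 0.10) at the low dose against stress (adjusted p = 0.296 by edgeR and 0.0245 by DESeq2). Mia3, which loads procollagen into export vesicles, differed by -0.38 (SE 0.09) at the low dose against stress (adjusted p = 0.296 by edgeR and 0.0352 by DESeq2). P4ha3 differed by 0.59 (SE 0.28) under stress, or 0.32 without stress 1.

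In propeptide processing, Pcolce2, an enhancer of procollagen cleavage, differed by 0.67 (SE 0.26) under stress, or 0.41 without stress 3. Tll1, a procollagen-cleaving protease, ran from only 0.07 to 0.39 TPM, where counts are few. It differed by -0.76 (SE 0.49) under stress, 1.08 (SE 0.48) at the low dose against stress (0.63 without low dose 3) and 1.61 (SE 0.47) at the high dose against stress (unadjusted p = 0.00461, adjusted p = 0.9998 by edgeR). Among the crosslinking enzymes, Lox, the lysyl oxidase that starts crosslinks, stood at 8.60, 7.29 and 7.43 TPM in control, 4.68, 1.17 and 1.98 under stress, 7.94, 5.04 and 42.3 at the low dose and 7.17, 17.3 and 2.06 at the high dose. All stress values lay below all control values, and low dose 3 was the highest library by far. The log2 fold change of Lox was -1.56 (SE 0.92) under stress and 2.97 (SE 0.95) at the low dose against stress, or 1.42 without low dose 3. At the low dose against stress 6 of 7 crosslinking genes stood higher (median 0.18), and between the doses 7 of 7 stood lower at the high dose (median -0.17).

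Of the fibril-associated proteins, Sparc, a collagen-binding matricellular protein, ran from 1324 to 2416 TPM and Bgn, the proteoglycan biglycan, from 1052 to 1893 TPM. Bgn differed by -0.42 (SE 0.14) under stress, lower without overlap, and Fn1, fibronectin, by 0.48 (SE 0.21), higher without overlap (0.21 without stress 3). Postn, periostin, stood at 61.4, 37.5 and 50.8 TPM under stress and 81.6, 46.1 and 171 TPM at the low dose, a difference of 1.14 (SE 0.44), or 0.47 without low dose 3. The partners of collagen IV in basement membranes, laminins, nidogens, agrin and perlecan, stood lower at the low dose than under stress in 9 of 10 cases (median -0.40) and higher at the high dose than at the low dose in 10 of 10 (median 0.29), the same directions as Col4a1 and Col4a2. Of the 4 tested type IV genes, 2 were higher and 2 lower in each of these comparisons. The endothelial and pericyte markers had the directions of the partners too (medians -0.36 and -0.23, then 0.56 and 0.79), and the part of those cells was not tested. Counts of low dose 2 had the strongest relation to transcript length (r = -0.52). It was the lowest library in TPM for Lama4, Lamb1, Lamc1, Nid1, Nid2, Hspg2 and Agrn. Low dose 3 was the lowest for Lama2, Lama5 and Lamb2. The part of transcript length was not tested for these genes. Lama5, a laminin chain of epithelia and vessels, differed by -0.68 (SE 0.21) at the low dose against stress and by -0.83 (SE 0.21) against control (adjusted p = 0.316 by edgeR and 0.0465 by DESeq2).

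Collagen receptors and collagen-degrading enzymes gave no edgeR calls either. Ddr2, a receptor kinase for fibrillar collagen, stood at 100.05, 98.5 and 126 TPM under stress and 77.0, 56.8 and 60.6 TPM at the low dose. Its difference was -0.61 (SE 0.13) (adjusted p = 0.266 by edgeR and 0.0128 by DESeq2), with the low-dose libraries all below the stress libraries. Itga1, an integrin subunit that binds collagen IV, differed by -0.94 (SE 0.23) (adjusted p = 0.295 by edgeR and 0.0360 by DESeq2), and Itga11, a fibroblast integrin subunit for collagen I, by 1.74 (SE 0.63) at the high dose against stress (1.03 without high dose 2). Itga11 ran from only 0.09 to 0.74 TPM. Mmp2, a gelatinase, was the most abundant of the collagenolytic genes described here, at 438 to 972 TPM. Mmp13, a collagenase, differed by -1.20 (SE 0.69) under stress, and Mmp8, a neutrophil collagenase, by 1.65 (SE 0.60) at the low dose against stress, or 1.09 without low dose 2. Timp1, a metalloproteinase inhibitor, differed by 1.06 (SE 0.34) at the low dose against stress, or 0.54 without low dose 3, its highest library.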

How the data were processed

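Per the labels' protocols, RNA of integrity above 7 was purified for poly(A) and read as stranded pairs. Per the submitters' processing notes the authors used cutadapt 1.9, HISAT2 2.0.4, StringTie 1.3.4d, DESeq2 and edgeR, with GRCm38.p6. The annotation and counting options are not given in the sources used here. The deposited estimated counts of the authors are per gene, and 11.7% to 12.5% of values per library were not whole; they were rounded. The deposited TPM values of the authors are scaled for transcript length to equal library sums. The deposited FPKM values of the authors, scaled for length and depth, served as an alternative to TPM for class sums.

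Genes were filtered with filterByExpr (minimum count 10), leaving 13453, and tested with TMM factors and edgeR 4.0.16 quasi-likelihood fits (robust, 2-sided, R 4.3.3) in 1 model of 12 libraries and 4 groups. The fit left 8 residual degrees of freedom, with a common dispersion of 0.038. Benjamini-Hochberg adjustment ran over all genes, with a threshold of 0.05. The median SE of a collagen log2 fold change was 0.338. The precision of a level is set by the spread over 3 libraries. Groups did not overlap where all CPM of one lay above all CPM of the other. Scores were means of centred log2 CPM (prior count 2) of marker genes. The pipeline was tested on simulated data.

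Members and lists were chosen with earlier results of these data known. Named were all collagen genes with a mean of at least 10 TPM, up to 3 genes per direction and comparison with the smallest unadjusted p, and up to 2 per related list; other genes are named for their level or lack of overlap, chosen after their values were seen. Col9a1 is not analysed here. As alternatives, RLE factors, a count minimum of 50 or none, fits on just the 6 libraries compared, DESeq2 1.42.0, limma-voom (limma 3.58.1, quality weights), a replicate block, length and GC offsets (loess, span 0.3; GENCODE transcripts), muscle or fibroblast covariates, omission of the 3 libraries richest in muscle, and leaving out each library were run.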

Additional observations from a re-analysis of the deposited data

How the results depend on the processing

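Of the alternatives to the counts of calls, class medians, chain ratios and class sums, 550 left the count of calls or a test's side of its threshold as it was, or the value within the spread between replicates, 15 moved and 5 gave a call. That spread was wide, so a value within it could still change sign, and the 550 do not show stable values. The log2 ratio of summed fibrillar TPM at the low dose against control was 0.50, and -0.15 to 0.83 without 1 library. Under stress it was 0.62, and 0.50 to 0.72 without 1 library. No collagen gene was called to begin with, so no call could be lost or reversed. With calls made at an unadjusted p under 0.05 and a change of at least 1 (log2) in size, 1 collagen gene was called between the doses, 1 at the low dose against control and 1 at the high dose against control, by construction of the looser rule (against 0.825%, 1.32% and 0.334% of all genes tested). Leaving out 1 library gave 0 to 1 calls at the low dose against stress and 0 to 2 at the low dose against control, all without low dose 1. The shares of all genes called in those fits are not given here. Without 1 library, the fibrillar median under stress ran from -0.030 to 0.18 (highest without stress 2). The type IV medians rest on 4 genes. In the main fit they were 0.079 at the low dose against stress and 0.18 between the doses. Against control they were 0.013 at the low dose and 0.0095 at the high dose. Without 1 library they ran from -0.45 to 0.23 at the low dose against stress, from -0.16 to 0.75 between the doses and from -0.72 to 0.20 at the low dose against control. With no filter on counts, 6 type IV genes entered and the median was 0.037 under stress and -0.033 at the high dose against stress. With a minimum count of 50, 3 type IV genes remained and the median at the low dose against control was -0.41. With limma-voom the type IV median was 0.60 between the doses and -0.48 at the low dose against control. In the main fit the fibrillar median was 0.28 at the low dose against stress. Against control it was 0.30 at the low dose and 0.15 at the high dose. The fibroblast score as a covariate gave fibrillar medians of 0.055 (low dose against stress), -0.052 (low dose against control) and -0.12 (high dose against control), and type IV medians of -0.36, -0.71 and -0.31 in the same comparisons. The cause of the last 2 sets of values was not tested.

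The replicate numbers did not pair the libraries: 4 of 18 same-numbered pairs had deviations correlated above 0.1, and 4 of 12 libraries correlated best with their own number. With the replicate block, 0 collagen genes were called in the 6 comparisons, no value passed the threshold, and 4 of 123 fitted medians and gene differences changed sign. With 3 libraries a group and a median SE of 0.338, small differences in log2 fold change were not detectable here, and genes under 1 TPM rest on few counts.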
